A study of Mus musculus with 8 samples.

Results

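Ependymal cells were 297 of the 50254 cells kept (0.591%) in single-cell RNA sequencing of mouse brain, spread over 7 distinct libraries. They were chosen on measured values: a cell of at least 500 genes and under 15% mitochondrial molecules counted as ependymal when at least 3 of Ccdc153, Tmem212, Foxj1, Rarres2 and Dynlrb2 were detected in it. Cells with 20 or more per 10000 unique molecular identifiers (UMIs, 1 per captured molecule) in Cldn5, Flt1 and Pecam1 together (endothelial genes), 20 or more in C1qa and C1qb (microglial genes), or 300 or more in Ttr (choroid plexus) were kept out. These genes are therefore described below without a test. In all, 272 cells had all 5 markers, 17 had 4 and 8 had 3. Just outside the limits lay 106 cells with 2 markers, 33 that failed by Ttr, 19 by the endothelial genes and 13 by the C1q genes.

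Ependymal cells form the single layer of glia that lines the brain ventricles. They carry tufts of motile cilia whose beat moves cerebrospinal fluid along the ventricle wall. Each motile cilium is built on a microtubule axoneme with dynein arms as motors, radial spokes and a central pair that coordinate them, and it is assembled by intraflagellar transport. Foxj1 and the RFX factors are the transcription factors that switch on the genes for these parts.

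The study removed laminin chains of the vessel wall, in 2 experiments with separate wild-type (WT) controls. Lama4-/- mice are labelled as lacking laminin alpha 4 with no driver named. Tek-Cre:Lama5-/- mice are meant to lack laminin alpha 5 where Tek-Cre is active, in the endothelial lineage. Lama5 is therefore not deleted by design in ependymal cells. All mice were 8 weeks old and perfused with cold buffer, and brains of 3 mice were pooled in each of the 4 groups, written here as WT of Lama4, Lama4 KO, WT of Lama5 and Lama5 KO. The 2 samples of a group came from 1 pool, so the spread between them is technical, leaves out differences between mice, and gives p-values that measure only that spread. The 2 deposited Lama4 KO samples held identical matrices and counted as 1 library. The tissue is labelled as cortical plate, whereas ependymal cells line the ventricles.

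The libraries held 35479306 to 48314458 UMIs in all, and the cells kept had a median of 3039 to 6690 UMIs each. The members were deeper: their median was 13635.5 and 14063 UMIs in WT of Lama4, 11181.5 in Lama4 KO, 10470.5 and 8714.5 in WT of Lama5, and 8388 and 10159.5 in Lama5 KO. No member shared a cell barcode with a member of another library. In endothelial cells Lama4 stood at 46.6 and 45.1 CPM (UMIs of the gene per 1000000 UMIs of the cells) in WT of Lama4 against 0.0554 CPM in Lama4 KO, and Lama5 stood at 42.9 and 42.1 CPM in WT of Lama5 against 24.7 and 27.3 CPM in Lama5 KO. Ependymal cells had no Lama4 UMI in 6 of 7 libraries (5.79 CPM in the other), and Lama5 at 2.63 to 21.8 CPM, so neither deletion could be read from the members. Some members also carried markers of other cells: 24 had at least 3 of 5 astrocyte markers, and 47 had at least 3 markers of oligodendrocytes, neurons or neuroblasts, mural cells or fibroblasts. No doublet caller was run, so mixed droplets can be among these.

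A short DNA motif is shown first because it recurs upstream of part of the genes that mark these cells. GTTGCC, the core of the site bound by RFX factors, was searched on both strands in the 250 bases before each gene's start in RefSeq (build GRCm38.p6). It occurred in 33 of 87 matched genes of the 4 ciliary lists used below (37.9%; 106 genes were looked up), against 3195 of all 27025 genes in the table (11.8%). It was in 8 of 16 genes of the central pair, radial spokes and nexin link (50%), 12 of 25 other axoneme genes (48.0%), 8 of 26 transport genes (30.8%) and 5 of 20 dynein genes (25%). In secreted proteins and carriers of ependymal cells it was in 0 of 15, and in astrocyte markers in 1 of 10 (10.0%). The forkhead motif GTAAACA was in 4 of the 87 ciliary genes (4.60%) against 956 of all genes (3.54%). A match describes the letters only, and does not show that a factor binds there. Of the 15 leading genes named below 12 were matched, and GTTGCC was in 6 of them (50%). It was in 2 of 3 matched genes of the rule. Windows of 100 bases follow for a gene of the rule and for 5 of the leading genes, all picked because they hold the motif. They run 5′ to 3′ along the gene's own strand, with the motif, or its reverse complement GGCAAC, in capitals.
Ccdc153 (chr9:44240475-44240574, + strand): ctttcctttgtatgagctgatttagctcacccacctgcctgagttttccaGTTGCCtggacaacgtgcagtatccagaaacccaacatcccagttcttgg
Fam183b (chr11:58801961-58802060, - strand): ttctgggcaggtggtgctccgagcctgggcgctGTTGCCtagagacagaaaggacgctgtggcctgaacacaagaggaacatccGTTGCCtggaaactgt
Sntn (chr14:13670760-13670859, + strand): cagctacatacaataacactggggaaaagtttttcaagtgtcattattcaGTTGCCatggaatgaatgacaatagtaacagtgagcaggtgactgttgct
Iqca (chr1:90153487-90153586, - strand): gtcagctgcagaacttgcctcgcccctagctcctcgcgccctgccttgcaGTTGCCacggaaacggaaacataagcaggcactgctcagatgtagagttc
Enkur (chr2:21205366-21205465, - strand): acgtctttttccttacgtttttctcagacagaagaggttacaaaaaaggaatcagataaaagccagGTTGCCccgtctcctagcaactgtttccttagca
Cdhr3 (chr12:33092876-33092975, - strand): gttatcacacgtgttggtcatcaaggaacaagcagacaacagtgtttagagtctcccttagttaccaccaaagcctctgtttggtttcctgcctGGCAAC
The Fam183b window holds the motif at 2 places. In Cdhr3 it ends at the last base before the annotated start, and in Enkur it ends 28 bases before it. The levels of these 6 genes in the members were between 191 and 2193 CPM in every library, as given next.

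Levels are CPM of UMIs summed over the members of a library, a scale that counts molecules and does not grow with transcript length. Ccdc153 ranged from 1846 to 2193 CPM over the 7 libraries, Tmem212 from 1954 to 2414 CPM, and Rarres2, which encodes the secreted protein chemerin, from 2872 to 3842 CPM. Foxj1 ranged from 726 to 893 CPM and the dynein light chain gene Dynlrb2 from 620.2 to 824 CPM. Each marker was detected in 96.6% to 99.0% of the members, as the rule demands, against 0.221% to 2.64% of 28898 endothelial cells. The median depths were 11051 and 3707.5 UMIs, and after thinning to 4000 UMIs per cell, which left 276 members and 13274 endothelial cells, Ccdc153 was in 97.5% against 0.369%.

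Outside the rule, the 15 genes with the highest level relative to astrocytes, choroid plexus cells, endothelial cells and microglia of the same libraries included several parts of the motile cilium. These ratios are a description, since the cells were chosen on their own transcripts, and they carry a pseudocount of 10 CPM. Fam183b (a ciliary gene) had a median of 689.9 CPM over libraries and was 60.3-fold above the next kind of cell, the highest ratio among genes outside the rule with a median of at least 100 CPM. Sntn, which encodes the ciliary tip protein sentan, followed at 425 CPM (41.2-fold), and the dynein heavy chain genes Dnah12 and Dnah5 at 406 and 313 CPM (38.1-fold and 30.3-fold). Spag17 of the central pair stood at 303 CPM, Iqca of the nexin link at 373 CPM and Enkur, a calmodulin-binding axoneme protein, at 437 CPM. The cadherin-related gene Cdhr3 closed the 15 at 221 CPM (22.5-fold). Sntn had values of 461 and 425 CPM in WT of Lama4, 398 CPM in Lama4 KO, 344 and 375 CPM in WT of Lama5 and 483 and 454 CPM in Lama5 KO, and its median in astrocytes and in choroid plexus cells was 0 CPM.

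Not all of the 15 were ciliary. Ly6h, a lipid-anchored surface protein, stood at 447 CPM (36.3-fold), the crystallin gene Crygn at 334 CPM, and Calb1, which encodes the calcium buffer calbindin, at 260.1 CPM. Ucma and Dmkn, which encode secreted proteins, stood at 291 and 278 CPM, and Got1l1 at 263 CPM. The remaining gene of the 15 was Gm10714, annotated as antisense, at 246 CPM. Whether counting used strand is not given in the sources used here, so its reads may be those of its partner. Of 1772 genes with a median of at least 100 CPM, 82 were at least 10-fold above each other kind of cell.

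**Figure D1:**
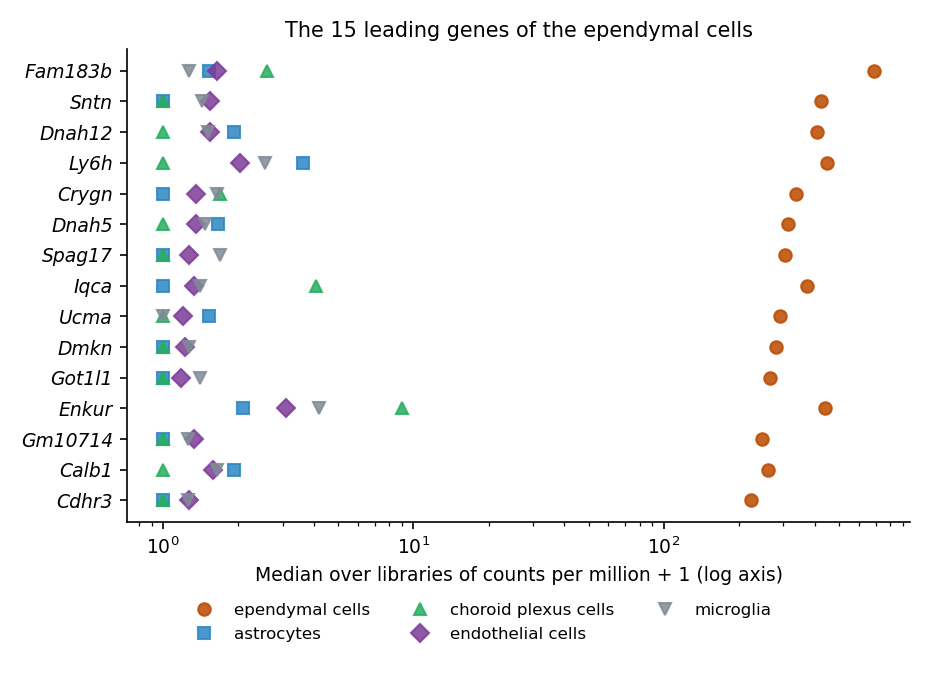
Median CPM plus 1 (log axis) of the 15 leading genes outside the rule in ependymal cells (7 libraries), astrocytes, choroid plexus cells (3 libraries with enough cells), endothelial cells and microglia. The ependymal points lie between 221 CPM (Cdhr3) and 689.9 CPM (Fam183b), at least 22.5-fold above each other kind of cell with a pseudocount of 10 CPM.

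The ciliary program was present almost whole. Of 26 genes for axonemal dynein arms and their assembly, 26 had a median of at least 10 CPM, and all 26 were above the astrocytes of the same library in all 7 libraries, as were 3184, or 10.3%, of all genes in the files. The motor genes Dnah6, Dnah9 and Dnah11 had medians of 351, 278 and 216 CPM, and the assembly factors Zmynd10 and Dnaaf1 medians of 109.6 and 54.05 CPM. In the list of central pair, radial spokes and nexin link, 19 of 20 genes reached 10 CPM and all 19 were above astrocytes in every library, beside the same 10.3% of all genes. Rsph1, a radial spoke gene, had the highest median of that list (915 CPM), Ak7 stood at 575 CPM and Hydin at 335 CPM. Spag6 was at 0 in all 7 libraries while its close copy Spag6l stood at 282 CPM, and how reads were split between the pair is not given in the sources used here. Of 31 other axoneme and basal body genes, 31 reached 10 CPM, led by the tubulins Tuba1a (2760.3 CPM) and Tubb4b (2294 CPM). Intraflagellar transport and BBSome genes reached it in 29 of 29 cases, at lower levels: Ift43 had 370.1 CPM, Ift88 149.9 CPM and Bbs9 25.6 CPM.

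The regulators that start the program were low or absent in these adult cells. Mcidas, which switches on the multiciliated fate, was at 0 in 6 libraries and at 4.51 CPM in the other, and Gmnc, which acts beside it, ranged from 7.72 to 28.3 CPM. Cdc20b and Foxn4 each had UMIs in 1 library. Of the factors that act later, Myb ranged from 145 to 185 CPM, Rfx3 from 119 to 187 CPM and Trp73 from 30.9 to 66.9 CPM. Myb was detected in 218 of 297 members (73.4%) against 34 of 28898 endothelial cells (0.118%). Deup1, a gene of the deuterosome that multiplies basal bodies, ranged from 21.1 to 82.6 CPM.

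The cells also carried glial and surface genes that astrocytes share. Aqp4, the water channel, had a median of 829 CPM against 892 CPM in astrocytes, Sox2 487 against 457 CPM, and Sox9 1004 against 408 CPM. Hes5 was at 0 against 203 CPM, and Gjb6, an astrocytic connexin and one of the 5 genes that marked astrocytes here, at 2.02 against 648 CPM. In the other direction, Cd24a stood at 815 against 3.12 CPM and the imprinted gene Nnat at 4112 against 174 CPM. Of 27 genes of this list, 10 were above astrocytes in all 7 libraries (37%), against 10.3% of all gene IDs. That base includes the 14337 IDs with 0 UMIs in the members, so no excess is read from it. The most abundant gene of the secreted proteins and carriers was Dbi, which encodes an acyl-CoA binding protein that is also the source of neuropeptides, at 12649 CPM against 1943 CPM in astrocytes. Clu and Apoe, carriers of lipid in the fluid, stood at 2588 and 8061 CPM.

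Tanycytes, the ventricular cells of the hypothalamus, were looked for among the members: 102 had at least 3 genes of the tanycyte list, but its genes Rax and Crym had 0 UMIs in all 7 libraries. Scn7a and Nes, also on that list, had medians of 117 and 131 CPM. For the genes the study is about, ependymal cells held little. Of 26 genes of laminins, basement membrane and their receptors, 16 reached 10 CPM. Lamb2 ranged from 57.9 to 96.1 CPM, Lamb1 from 18.02 to 63.7 CPM, Lamc1 from 19.5 to 44.4 CPM and Lama3 from 10.5 to 30.3 CPM. Lama1 was at 0 in all 7 libraries. Sparc, a collagen-binding matrix protein, was the most abundant gene of the list at 866 to 1187 CPM, and Dag1, the laminin receptor dystroglycan, ranged from 109.6 to 173 CPM.

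Members varied among themselves in a few genes far more than in the rest. After thinning to 4000 UMIs, 276 members and 589 genes were compared by the Fano factor, the variance over the mean of the counts, which is 1 for pure counting. Hbb-bs (haemoglobin) had a Fano factor of 584 with 98.9% of its UMIs in the top 10% of cells, and belongs to red cells. Gm42418 had 57.9, Malat1 at 25.1, Apoe at 12.8 and the immediate early gene Fos at 12.1. Haemoglobin was concentrated in 1 library: in WT of Lama4 replicate 2, 2 members had at least 100 haemoglobin UMIs, up to 34.2% of a cell's UMIs, and without them the library had 57.0 CPM against 15.1 to 114 CPM in the other 6.

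The share of ependymal cells among cells kept was the first comparison. It was 0.429% (exact Clopper-Pearson 95% interval 0.275 to 0.638) and 0.525% (0.349 to 0.758) in WT of Lama4, and 0.934% (0.694 to 1.23) in Lama4 KO. It was 0.631% (0.474 to 0.823) and 0.727% (0.558 to 0.931) in WT of Lama5, and 0.420% (0.293 to 0.583) and 0.514% (0.374 to 0.690) in Lama5 KO. The Lama5 KO libraries lay below both WT of Lama5, and the Lama4 KO library above both WT of Lama4. All intervals here cover counting error only.

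In the Lama5 experiment the mean share was 0.467% ± 0.0669 (SD, n = 2) in KO and 0.679% ± 0.0679 (SD, n = 2) in WT, a difference of -0.212 percentage points (two-sided exact permutation p = 0.33, the smallest that 2 against 2 libraries allow). Between the WT pools the difference was as large, 0.202 percentage points (0.477% ± 0.0680 in WT of Lama4, SD, n = 2; exact permutation p = 0.33). Lama4 KO stood 0.457 percentage points above its WT, with 1 library and no test. Without members that carried astrocyte markers, an alternative chosen after seeing the data, the Lama5 difference was -0.130 percentage points, and with a mitochondrial limit of 10% it was -0.112. Choroid plexus cells, which hang in the ventricles, numbered 27 and 24 cells in WT of Lama4, 112 in Lama4 KO, 1 and 0 in WT of Lama5, and 6 and 6 in Lama5 KO. Their part in the shares was not tested.

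**Figure D2:**
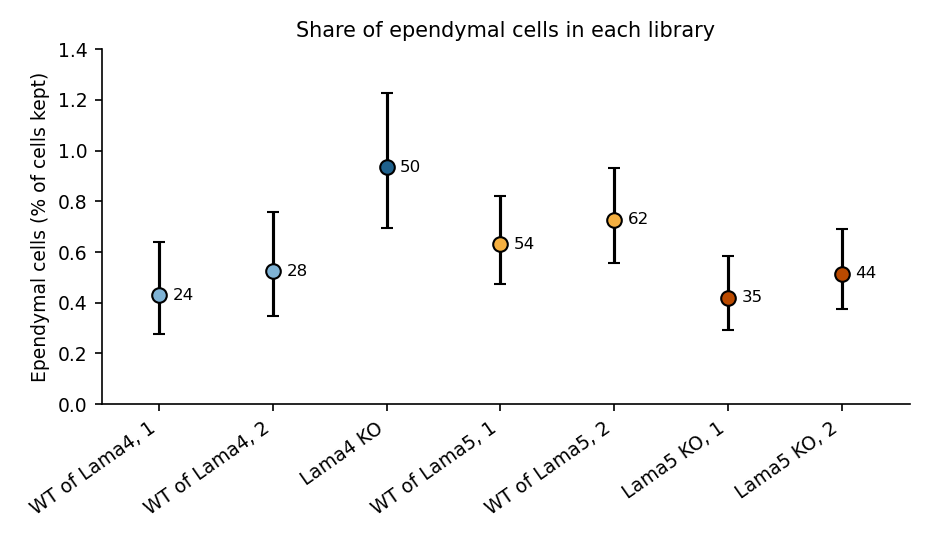
Ependymal cells as a percent of cells kept (y axis) in each library (x axis), with exact 95% binomial intervals as bars and the number of ependymal cells beside each point. Lama4 KO is the highest at 0.934%, and the Lama5 KO libraries (0.420% and 0.514%) overlap the range of WT of Lama4 (0.429% and 0.525%).

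Ttr differed between libraries in the members and in endothelial cells, and in both Lama4 KO was the highest and WT of Lama5 the lowest. Ttr, which encodes the thyroid hormone carrier transthyretin and was part of the rule, stood at 71.1 and 56.6 CPM in the members of WT of Lama4, 749 CPM in Lama4 KO, 0 and 0 CPM in WT of Lama5 and 47.4 and 25.1 CPM in Lama5 KO. Endothelial cells of the same libraries had 144 and 406 CPM, 1420.4 CPM, 0.413 and 0.155 CPM, and 78.3 and 69.2 CPM in the same order. The members' level was below that of endothelial cells in each library, and its source was not tested.

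The largest set of changes lay between the pools of wild-type mice. Ependymal cells of WT of Lama5 had more RNA of the immediate early genes than those of WT of Lama4, and less of several keratins and of the neuropeptide gene Npy. Of 8000 genes tested on summed counts with edgeR's quasi-likelihood test, 371 were called at an adjusted p under 0.05 (4.64%), 262 higher and 109 lower in WT of Lama5, with a median log2 fold change of -0.00 over all genes. All 18 immediate early and dissociation genes, which cells switch on within minutes of stress or stimulation, were among those called higher, with a median log2 fold change of 1.02. Without WT of Lama4 replicate 1 the count was 173, and DESeq2 called 125. The labels give both pools as wild type of the same age, and the experiment they belong to cannot be told apart from the difference.

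Fos, which forms the AP-1 factor with Jun, stood at 3280.5 and 3459 CPM in WT of Lama4 and 5746 and 5616 CPM in WT of Lama5. By edgeR it rose by 0.80 on the log2 scale (SE 0.0779, adjusted p 1.19e-05). Lama4 KO had 3002 CPM and Lama5 KO 5486 and 5961 CPM, so the 2 experiments did not overlap in any of the 7 libraries, while KO and WT within an experiment lay together. Jun showed the same order, at 1345 and 1607 CPM in WT of Lama4, 1626 in Lama4 KO, 3579 and 3358 in WT of Lama5 and 3621 and 3635 in Lama5 KO (edgeR log2 fold change between the WT pools of 1.28 with SE 0.106, adjusted p 3.19e-06). The zinc finger genes Egr1 and Klf4 rose by 1.44 (SE 0.124) and 1.82 (SE 0.143) on the log2 scale, with edgeR adjusted p of 4.35e-06 and 1.86e-06. The smallest of the 18 changes was in Jund, 0.48 (SE 0.121, edgeR adjusted p 0.0294), and Jund was also the member of the list where Lama4 KO (1077 CPM) reached the level of WT of Lama5 (1023 and 959.8 CPM). The nuclear receptor gene Nr4a3, outside the list, was at 73.7 and 68.7 against 405 and 422 CPM (edgeR log2 fold change of 2.59 with SE 0.164, adjusted p 1.69e-07).

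Summed over the 18 genes, the level was 12050 and 12829 CPM in WT of Lama4, 12362 in Lama4 KO, 23804 and 23516 in WT of Lama5, and 22186 and 23855 in Lama5 KO. Single cells spread widely around this. The per-cell median was 53.4 and 101 per 10000 UMIs in WT of Lama4, 45.2 in Lama4 KO, 233 and 191 in WT of Lama5, and 200 and 218 in Lama5 KO. Cells of WT of Lama4 replicate 1 ran from 10.6 to 478 and those of WT of Lama5 replicate 2 from 7.86 to 554, so the ranges of cells overlapped where the medians of the experiments did not. For comparison, 77 axoneme genes (dynein, central pair and other axoneme lists) had per-cell medians of 247 to 290 per 10000 UMIs in all 7 libraries.

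**Figure D3:**
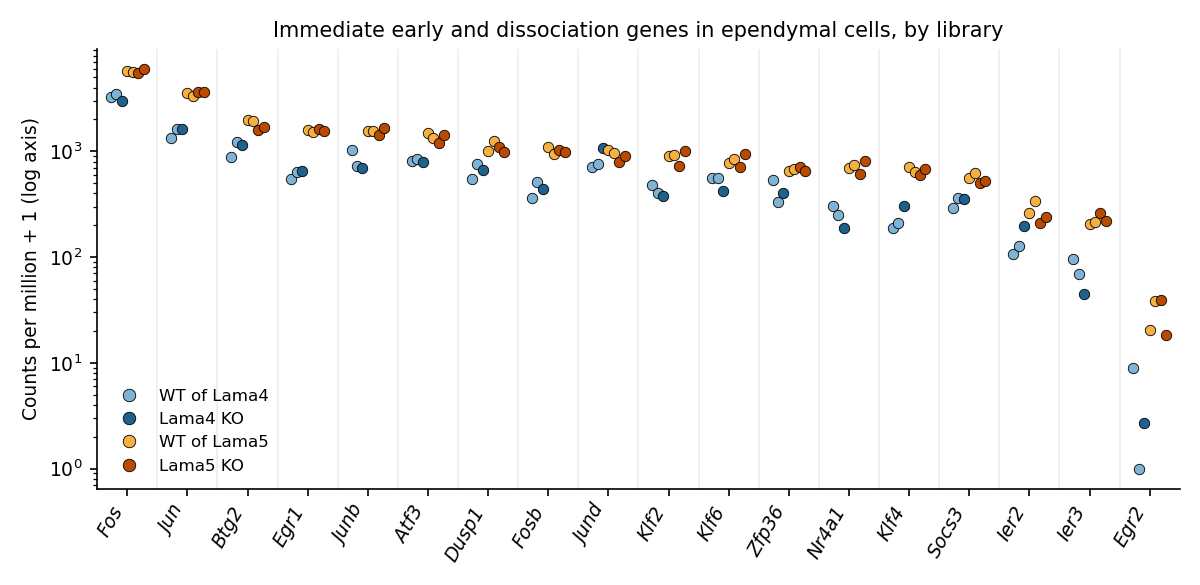
CPM plus 1 (log axis) of 18 immediate early and dissociation genes summed over the ependymal cells of each of 7 libraries, coloured by group. The 4 libraries of the Lama5 experiment lie above the 3 of the Lama4 experiment for the genes shown other than Jund, as for Fos (5486 and 5961 CPM in Lama5 KO against 3280.5 and 3459 CPM in WT of Lama4), and KO and WT of the Lama5 experiment lie together.

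**Figure D4:**
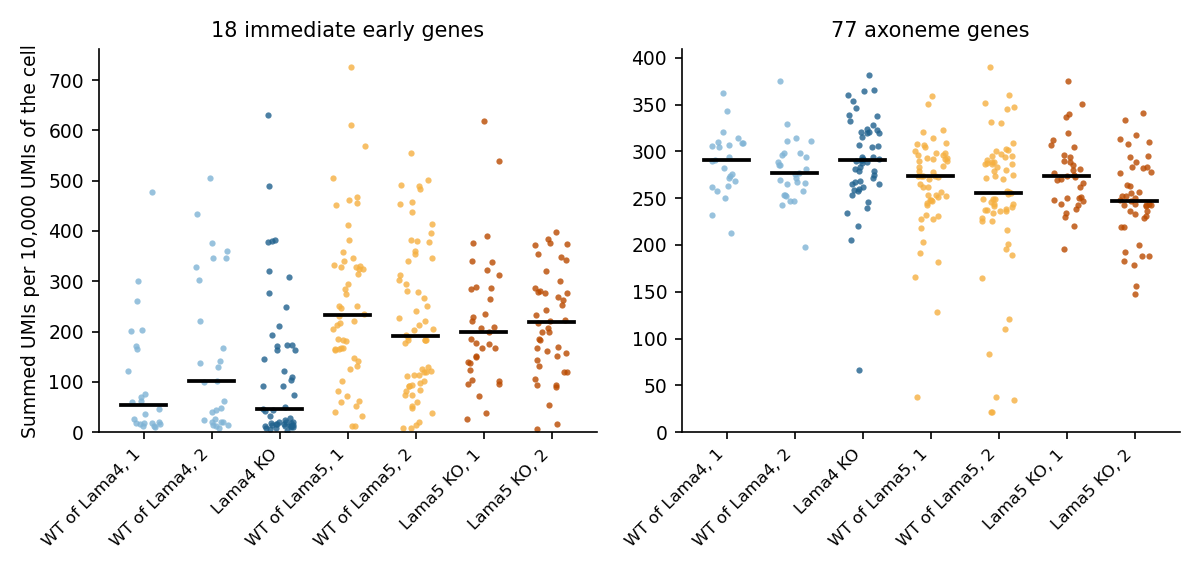
Summed UMIs per 10000 UMIs of the cell (y axis) for 18 immediate early genes (left) and 77 axoneme genes (right) in single ependymal cells of each library (x axis), with a black line at the median. The left medians run from 45.2 to 101 in the Lama4 experiment and from 191 to 233 in the Lama5 experiment, and the right medians from 247 to 290 in all libraries.

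The same 18 genes were looked at in the other cells of these libraries, as a description. Both libraries of WT of Lama5 lay above both of WT of Lama4 for 18 of 18 genes in endothelial cells (30.4% of all genes did so there), for 10 of 17 at 10 CPM or more in astrocytes (25.4%), for 11 of 18 in microglia (53.1%) and for 18 of 18 in ependymal cells (20.1%). The median log2 differences were 1.26 in endothelial cells, 0.70 in astrocytes, 0.42 in microglia and 0.96 in ependymal cells, and the differences between kinds of cell were not tested. DESeq2 called 14 of the 18 in ependymal cells. With members that carried markers of astrocytes or of other cells left out, an alternative chosen after seeing the data, 8 of 17 tested were called and all 17 had a positive log2 fold change, with a median of 0.65. What set the pools apart was not tested.

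Heat shock genes did not follow the immediate early genes. Of 13 tested, 4 were lower in WT of Lama5 and 0 higher, with a median log2 fold change of -0.14: Hspa1b at 326 and 281 CPM in WT of Lama4 against 108 and 119 CPM (edgeR log2 fold change of -1.35 with SE 0.155, adjusted p 7.32e-05), Dnajb1, Hspa1a and Hspa8. Idi1, an enzyme of isoprenoid synthesis, rose from 21.1 and 34.4 CPM in WT of Lama4 to 228 and 138 CPM in WT of Lama5 (edgeR log2 fold change of 2.71 with SE 0.322, adjusted p 9.28e-05). The transcription factor gene Cebpd, the phosphodiesterase gene Pde4b and the growth factor gene Hbegf rose by 3.63, 2.95 and 2.58 on the log2 scale (edgeR adjusted p 3.92e-06, 6.1e-06 and 7.33e-05).

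Mbp, Ptgds and Mal, also among the 10 named rises (at least 50 CPM on average and no overlap between the groups), are abundant in oligodendrocytes, and much of their count sat in single cells. In WT of Lama5 replicate 1, the top cell for each gene held 95.5% of the Ptgds UMIs, 86.5% of the Mal UMIs and 81.6% of the Mbp UMIs. Without members that carried markers of other cells Ptgds and Mal were no longer called (edgeR adjusted p 0.458 and 0.643). Mbp did not lose its call under any alternative that tested it. The 8 oligodendrocyte markers were all called higher in WT of Lama5, with a summed level of 60.6 and 76.8 CPM in WT of Lama4, 2176 and 1270 CPM in WT of Lama5, and 198 and 1149 CPM in Lama5 KO. Members with at least 3 of these markers numbered 0 and 1 in WT of Lama4, 1 in Lama4 KO, 3 and 6 in WT of Lama5, and 1 and 3 in Lama5 KO.

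Among the genes lower in WT of Lama5, Npy, which encodes neuropeptide Y (ENSMUSG00000029819, chromosome 6, 49822710 to 49829507 in GENCODE M21), had the largest fall of the 10 named genes, which exclude those of the rule, under 50 CPM on average or with overlapping groups. Ttr and Hbb-bs, outside these limits, had log2 fold changes of -8.17 and -6.53. Npy stood at 184 and 176 CPM in WT of Lama4, 206 in Lama4 KO, 9.01 and 10.3 in WT of Lama5 and 32.6 and 13.5 in Lama5 KO (edgeR log2 fold change of -4.13 with SE 0.279, adjusted p 3.19e-07). Npy UMIs were in 14 of 24 and 15 of 28 members of WT of Lama4 and 23 of 50 of Lama4 KO, against 3 of 54, 3 of 62, 4 of 35 and 4 of 44 in the Lama5 experiment, so many cells carried it in the first experiment and few in the other. Krt8, an epithelial keratin gene, followed at 176 and 113 against 18.02 and 15.4 CPM (edgeR log2 fold change of -3.03 with SE 0.307, adjusted p 1.94e-05). Its partner Krt18 and the keratin gene Krt15 fell by 1.77 and 1.74 on the log2 scale (edgeR adjusted p 0.000471 and 1.28e-05). Krt8 stood at 120.4 CPM in Lama4 KO and 44.4 and 40.5 CPM in Lama5 KO, again nearer to the WT of its own experiment. The orphan receptor gene Nr2f2 fell by 1.89, Clec3b, which encodes tetranectin, by 1.60, and the glutathione transferase gene Gstp1 by 2.19 on the log2 scale (edgeR adjusted p 0.000367, 0.00192 and 0.000297). Gm10076 and Bpgm were also among the 10 named, with log2 fold changes of -1.57 and -1.54, and Bpgm moved to -0.23 without WT of Lama4 replicate 2 (edgeR adjusted p 0.852), the library with the haemoglobin-rich cells.

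Few ciliary genes were called between the WT pools. Of 26 dynein genes 0 were called by edgeR (5 at an unadjusted p under 0.05; 0 called by DESeq2), with a median log2 fold change of -0.11. Of 19 genes of central pair and spokes 0 were called by edgeR (2 at an unadjusted p under 0.05; 0 by DESeq2), with a median of 0.01. Of 31 other axoneme genes Cfap52 fell (316 and 295 CPM in WT of Lama4 against 195 and 167 CPM; edgeR log2 fold change of -0.71 with SE 0.143, adjusted p 0.00866), and the median was -0.15. In that list 24 genes had a negative log2 fold change and 7 a positive one, and 8 had an unadjusted p under 0.05. Over all 8000 genes these numbers were 4026, 3974 and 1363. Without overlap between the WT pools, 15 of the 31 were lower and 0 higher in WT of Lama5, against 2453 and 1875 of 9314 genes at 10 CPM or more. Among 28 transport genes Arl13b, a GTPase of the ciliary membrane, rose from 129 and 172 to 302 and 310.1 CPM (edgeR log2 fold change of 1.06 with SE 0.156, adjusted p 0.000696), and Ift81 fell by 0.58 on the log2 scale (edgeR adjusted p 0.0391). Of 8 regulators tested, Ccno, the cyclin of basal body amplification, rose from 15.8 and 26.3 to 105 and 83.3 CPM (edgeR log2 fold change of 2.15 with SE 0.314, adjusted p 0.00062). The 2 KO groups had 31.8 CPM (Lama4) and 124 and 110 CPM (Lama5), each beside its own WT.

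Of the smaller lists, 1 of 24 glial and surface genes rose between the WT pools (Gfap, 1.04 on the log2 scale, edgeR adjusted p 0.00276) and 2 fell (Slc16a11 and Vim). Of 18 secreted proteins and carriers, Cpe, Mt1 and Ptgds rose and Igfbp2 and Pltp fell. The inflammatory list had 4 of 8 higher and 0 lower (C4b, Cxcl10, Nfkbia and Osmr), the interferon list 2 of 11 higher (Ifi27 and Stat2), and antigen presentation 1 of 5 (B2m). Of 14 laminin and basement membrane genes and 9 planar cell polarity genes edgeR called 0 in either direction (5 and 3 at an unadjusted p under 0.05; DESeq2 called 0 and 0). Of the 4 tanycyte genes tested 0 were called by edgeR (0 at an unadjusted p under 0.05; 0 by DESeq2).

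Against this, deletion of Lama5 by Tek-Cre went with few changes in ependymal cells. The comparison asks whether cells at the ventricle wall differ when Lama5 is deleted in the endothelial lineage. As given above, Lama5 RNA was lower but still present in endothelial cells of Lama5 KO, so these data do not show full loss of the chain. Of 7837 genes tested with edgeR's quasi-likelihood test, 34 were called at an adjusted p under 0.05 (0.434%), 15 higher and 19 lower in Lama5 KO, with a median log2 fold change of 0.00 over all genes. DESeq2 called 7, all among the 34, and without Lama5 KO replicate 2 edgeR called 69. Of the 34 genes, 15 differed more between the WT pools than between KO and WT, and both comparisons share the WT of Lama5 libraries. Of the 15 higher genes Ttr and Rarres2 were part of the rule, and nothing is read from them.

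None of the ciliary lists had a called gene: edgeR called 0 of 26 dynein genes (median log2 fold change 0.05; 1 at an unadjusted p under 0.05), 0 of 19 of central pair and spokes (0.07; 1), 0 of 31 other axoneme genes (0.11; 7) and 0 of 28 transport genes (0.04; 0), and DESeq2 called 0 in each of these 4 lists. As 0.434% of all 7837 genes were called, 0 calls in lists this short, here and below, cannot show that their genes were unchanged. Of all 7837 genes, 661 had an edgeR unadjusted p under 0.05, beside 7 of the 31 other axoneme genes. In that list 23 genes had a positive log2 fold change and 8 a negative one, against 3943 and 3894 of all genes. Whether the list moved as a set was not tested. The axoneme gene nearest to a call was Sntn, at 344 and 375 CPM in WT of Lama5 and 483 and 454 CPM in KO (edgeR log2 fold change of 0.42 with SE 0.127, adjusted p 0.161). Without Lama5 KO replicate 2, 1 of the 31 other axoneme genes was called higher. The 18 immediate early genes had 0 calls by edgeR and by DESeq2, 2 at an unadjusted p under 0.05, and a median of 0.01. Of 8 regulators and 7 planar polarity genes edgeR and DESeq2 called 0 (0 at an unadjusted p under 0.05 in both lists), and of 13 laminin and basement membrane genes also 0 (2 at an unadjusted p under 0.05, median 0.12). Sparc (876 and 866 CPM in WT and 1107 and 1091 CPM in KO) had an edgeR adjusted p of 0.0698, and Lamb1 followed at 18.02 and 28.2 CPM in WT and 41.5 and 63.7 CPM in KO (edgeR log2 fold change of 1.26 with SE 0.340, adjusted p 0.0906).

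The gene with the smallest adjusted p was Gm42418 (a lincRNA by its annotation, ENSMUSG00000098178, chromosome 17, 39846958 to 39848788 in GENCODE M21). It stood at 24501 and 25994 CPM in WT of Lama5 and 54643 and 46163 CPM in Lama5 KO (edgeR log2 fold change of 1.04 with SE 0.0576, adjusted p 9.29e-16), and at 10623 and 10285 CPM in WT of Lama4 and 10069 CPM in Lama4 KO. Its mean was also higher in other cells of the same libraries: by 0.89 on the log2 scale in astrocytes, 0.91 in endothelial cells and 0.92 in microglia, as differences of means with no test. Lars2, which encodes the mitochondrial leucyl-tRNA synthetase, followed it, at 671 and 674 CPM in WT and 1241 and 1046 CPM in KO (edgeR log2 fold change of 0.80 with SE 0.105, adjusted p 1.32e-05), with differences of 0.94 in astrocytes, 0.73 in endothelial cells and 0.57 in microglia. Both differences were thus seen in other kinds of cell of these libraries too.

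Nr4a2, an orphan nuclear receptor gene that is itself an early response gene, rose too. It stood at 204 and 172 CPM in WT of Lama5 and 302 and 430.5 CPM in KO (edgeR log2 fold change of 1.04 with SE 0.156, adjusted p 0.00014), against 42.1 and 88.96 CPM in WT of Lama4. Like the other named genes of this comparison it was picked for no overlap between KO and WT, which held for 38.3% of all genes tested. Its step between the WT pools was larger (log2 fold change 1.51). Dsc3, which encodes the desmosomal cadherin desmocollin 3, stood at 27.03 and 34.6 CPM in WT and 85.9 and 71.4 CPM in KO, the largest rise of the 10 named genes (edgeR log2 fold change of 1.35 with SE 0.281, adjusted p 0.0119). The chemokine gene Cxcl10 stood at 82.6 and 96.1 CPM in WT and 293 and 118 CPM in KO (edgeR log2 fold change of 1.14 with SE 0.244, adjusted p 0.0164). The rise of Cxcl10 rested on 1 library: without Lama5 KO replicate 1 it was 0.44 (edgeR adjusted p 0.744). Its UMIs came from 10 of 54 and 9 of 62 members in WT and from 11 of 35 and 12 of 44 in KO.

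The other named rises were smaller in level. Gm12326, 2900060B14Rik, Srl (sarcalumenin, a calcium-binding protein), Musk (a receptor tyrosine kinase) and Col6a5 (a collagen VI chain) rose by 1.18, 1.07, 0.98, 0.97 and 0.82 on the log2 scale, with edgeR adjusted p between 0.0161 and 0.0416. Hspa1a, which encodes the inducible heat shock protein 70, was the only called gene of 13 heat shock genes, at 81.1 and 103 CPM in WT and 201 and 154 CPM in KO (edgeR log2 fold change of 0.96 with SE 0.193, adjusted p 0.00901; list median 0.12). Without members that carried markers of other cells it was 0.49 (edgeR adjusted p 0.620). Lbp and Sncg were called with smaller changes (0.69 and 0.69), and were named after their values were seen. For 2900060B14Rik, annotated as antisense, WT of Lama4 lay below both groups of the Lama5 experiment (2.63 and 4.04 CPM, against 69.1 and 42.3 CPM in WT and 91.8 and 125 CPM in KO of Lama5).

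Slc1a2 and Gfap, both abundant in astrocytes, were lower in Lama5 KO. Slc1a2, the glutamate transporter of astrocytes, stood at 246 and 334 CPM in WT and 88.8 and 116 CPM in KO (edgeR log2 fold change of -1.43 with SE 0.186, adjusted p 1.32e-05), and over 10 times higher in astrocytes (median 6020.4 CPM). Gfap, the glial filament gene, stood at 204 and 270.4 CPM in WT and 88.8 and 102 CPM in KO (edgeR log2 fold change of -1.26 with SE 0.190, adjusted p 0.00014). The Lama5 KO levels of the pair were close to those of WT of Lama4 (100 and 148 CPM for Slc1a2, 118 and 121 CPM for Gfap). Members with at least 3 astrocyte markers, Slc1a2 being one of them, moved the same way: 7 and 8 in WT of Lama5, 0 and 1 in Lama5 KO, 3 and 4 in WT of Lama4 and 1 in Lama4 KO. Without these cells the log2 fold change was -0.82 for Slc1a2 (edgeR adjusted p 0.0243) and -0.71 for Gfap (0.113, no longer called). Of 7 astrocyte markers tested 2 were called lower (Slc1a2 and Slc1a3), with a median of -0.12, and their summed level was 1524 and 1830 CPM in WT of Lama5 and 1152 and 1203 CPM in KO. In astrocytes themselves Gfap was at 260.3 and 238 CPM in WT of Lama5 and 52.2 and 48.6 CPM in KO, as a description.

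Cpe, which encodes carboxypeptidase E, an enzyme that trims secreted peptides, fell at a high level. It stood at 1784 and 1769.6 CPM in WT of Lama5 and 1036 and 1260.5 CPM in KO (edgeR log2 fold change of -0.57 with SE 0.0944, adjusted p 0.000604), and at 1282 and 1361 CPM in WT of Lama4 and 1329.7 in Lama4 KO. In CPM the KO of Lama5 was therefore below its own WT. It was also below the other experiment, narrowly so for KO replicate 2 (1260.5 against 1282 CPM in WT of Lama4 replicate 1). CPM carry no normalisation factor between libraries (0.960 and 1.03 for these 2 by TMM), and the order against the other experiment was not tested. Without the members that carried astrocyte markers it was -0.45 (edgeR adjusted p 0.0162). Cpe was the only called gene of 18 secreted proteins and carriers, whose median was 0.03. Gm42418, Nr4a2 and Cpe were the 3 of the 20 named genes that stayed called under all 13 alternatives.

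Ptn, which encodes the growth factor pleiotrophin and is over 10 times higher in astrocytes and endothelial cells, stood at 207 and 256 CPM in WT and 65.1 and 133 CPM in KO (edgeR log2 fold change of -1.10 with SE 0.202, adjusted p 0.00277). Ifi27, an interferon-inducible gene, stood at 210.2 and 251 CPM in WT and 104 and 116 CPM in KO (edgeR log2 fold change of -1.02 with SE 0.179, adjusted p 0.00183), the only called gene of 11 in the interferon list (median -0.27). The long noncoding RNA Rmst, Kctd1, Irf2bp2 and the stress gene Gadd45g fell by 1.26, 1.01, 0.83 and 0.63 on the log2 scale (edgeR adjusted p 0.0359, 0.0103, 0.0235 and 0.00755). The 8 oligodendrocyte markers had 2 calls, both lower, Mag among them, and a median of -1.17. Of 6 antigen presentation genes edgeR called 0 (1 at an unadjusted p under 0.05; DESeq2 called 0), and of 8 inflammatory genes Cxcl10 was higher and C4b lower.

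**Figure D5:**
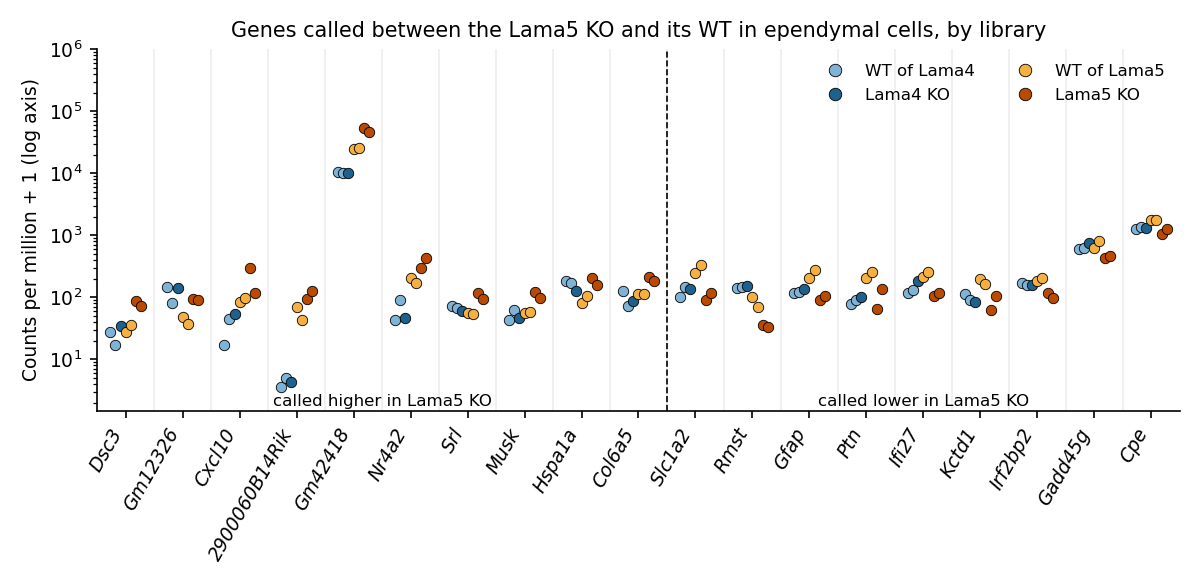
CPM plus 1 (log axis) in each library for 19 of the 20 named genes called between Lama5 KO and WT of Lama5, with those higher in Lama5 KO left of the dashed line and those lower right of it. For Gfap the Lama5 KO points (88.8 and 102 CPM) lie nearer to WT of Lama4 (118 and 121 CPM) than to WT of Lama5 (204 and 270.4 CPM). For Cpe they (1036 and 1260.5 CPM) lie below both WT groups in CPM, which carry no normalisation factor between libraries.

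In Lama4 KO, with 1 library, no test was possible. Genes were counted instead by a rule of size: at least 20 UMIs over the 3 libraries, a log2 ratio of at least 1 in size against each WT library with a pseudocount of 10 CPM, and Poisson 95% intervals that do not overlap. It took 13 of 8608 genes (0.151%), 9 higher and 4 lower. Between the 2 WT libraries the same limits took 51 genes, 35 and 16 by direction. That is a single comparison, without the demand to pass against both of 2 libraries. The 51 is therefore like the counts against 1 WT library, given next, and not like the 13. Against 1 WT library alone the rule took 74 genes (without WT replicate 1) and 55 (without WT replicate 2). The immediate early and ciliary lists moved little, with 0 genes past the rule in each. The 17 immediate early genes with enough counts had a median log2 ratio of 0.01, and 26 dynein genes 0.07. The 19 genes of central pair and spokes had 0.03, 31 other axoneme genes -0.01 and 28 transport genes 0.04. Some other lists had larger medians. The 12 interferon genes had -0.44 (3 above both WT libraries, 4 below both). The 14 laminin and basement membrane genes had 0.20 (9 above both, 4 below both). The 18 secreted proteins and carriers had -0.13 (6 above both, 10 below both). Of the list genes Isg15 and the marker genes Ttr, Myh11 and Hbb-bs passed it.

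Among the higher genes, Cdh26 and Gm45351 had UMIs in several members. Cdh26 (ENSMUSG00000039155, chromosome 2, 178430531 to 178487366 in GENCODE M21) encodes a cadherin. It had 0 and 4 UMIs in the WT libraries (0 and 8.09 CPM; Poisson 95% intervals 0 to 9.71 and 2.20 to 20.7) and 31 in KO (51.9 CPM, 35.2 to 73.6), a log2 ratio of 2.14. Its KO UMIs came from 9 of 50 members, with 38.7% in 1 cell. Gm45351, annotated as a pseudogene, had a log2 ratio of 1.55, with UMIs in 14 of 50 members of Lama4 KO and 20% in 1 cell. Most UMIs of the others sat in 1 or 2 cells. Gm13889 (2.19), the smooth muscle myosin gene Myh11 (2.15), the tropomyosin gene Tpm2 (1.77), Rasl11a (1.65) and Igfbp7 (1.24) had 72.7%, 70.8%, 88.4%, 81.0% and 64.1% of their KO UMIs in cells with just 3 of the 5 markers, of which Lama4 KO had 2. Mbp, a myelin gene (1.81), had 66.0% in 1 cell. The pericyte and smooth muscle markers summed to 719 and 716 CPM in WT of Lama4 and 1315 CPM in KO, and members with at least 3 of them numbered 4 and 1 in WT and 7 in KO. Their part in these values was not tested.

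Lower in Lama4 KO were Hbb-bs, Isg15, Faim2 and Gcnt1. Hbb-bs rests on the haemoglobin-rich cells of WT of Lama4 replicate 2 (19 and 5392 UMIs in WT, 6 in KO). Isg15, an interferon-induced gene over 10 times higher in endothelial cells, had 12 and 49 UMIs in WT and 3 in KO (log2 ratio -2.33), and in WT of Lama4 replicate 2 its 49 UMIs came from 2 cells. Faim2 had 12 and 10 UMIs against 1 (log2 ratio -1.62). Gcnt1, which encodes a glycosyltransferase of mucin-type sugars, was at 76.4 and 82.9 CPM in WT and 25.1 CPM in KO (log2 ratio -1.35).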

How the data were processed

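Cells of perfused mouse brain were released by enzymes at 37 °C and sequenced as 10x 3' libraries. The matrices hold raw UMI counts per gene and cell, deposited by the authors without normalisation. The submitters' processing notes name Cell Ranger, Seurat 3.1 and mm10, and the matrix header gives software version 3.1.0. The role of each step is not given in the sources used here. Of 8 deposited samples, the 2 Lama4-/- matrices were identical, which left 7 libraries. Of 31053 gene IDs, 31011 were found in GENCODE M21.

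Of 56961 barcodes, 50254 had at least 500 genes and under 15% mitochondrial UMIs. Member counts were summed per library (337740 to 780411 UMIs) and tested with edgeR 4.0.16 (quasi-likelihood, TMM, Benjamini-Hochberg adjustment, threshold 0.05) in R 4.3.3, with DESeq2 1.42.0 as an alternative. The method was tested on simulated counts. Shares were compared by exact permutation. Alternatives changed the normalisation, the filter on low counts, the marker number, the cell limits and the libraries used. Leaving out members with astrocyte markers, alone or with those of other cells, was chosen after seeing the data. The named genes were the called genes with the largest change, a mean of at least 50 CPM and no overlap between groups, up to 10 each way. For Lama4 KO they were those past the rule of size. A few of these genes are not reported here. The members, lists and tests were chosen with earlier results of these data known. Replicate counts differed by more than sampling noise in each group with 2 libraries. Python 3.11.15 (numpy 2.4.6, scipy 1.17.1, pandas 2.3.3, matplotlib 3.10.9) was used for the rest.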

Additional observations from a re-analysis of the deposited data

Results flagged for a closer look

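Of 32 results set side by side between the experiments, 13 moved in opposite directions in Lama4 KO and Lama5 KO, each against both libraries of its own WT. The difference between the experiments was not tested in any of them, since Lama4 KO has 1 library. Of all genes tested, 38.3% did not overlap between Lama5 KO and its WT. In Lama4 KO, 2919 of 8608 genes were above both WT libraries and 2649 below both. The named Lama5 genes were picked for no overlap, so the count of 13 is not read as a result. Gcnt1, Mbp, Rasl11a and Igfbp7 were not called in Lama5 KO. The share of ependymal cells was 0.457 percentage points higher than WT in Lama4 KO and lower in Lama5 KO (-0.212 percentage points). Higher in Lama5 KO and lower in Lama4 KO were Gm42418 (log2 fold change 1.04 in Lama5 KO, log2 ratio -0.054 in Lama4 KO), Srl (0.98 and -0.20) and Hspa1a (0.96 and -0.44). Gcnt1 had 0.59 in Lama5 KO and -1.35 in Lama4 KO.

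The opposite order held for 8 genes. Gfap had a log2 fold change of -1.26 in Lama5 KO and a log2 ratio of 0.15 in Lama4 KO, Ptn -1.10 and 0.21, and Ifi27 -1.02 and 0.54. Rmst had -1.26 and 0.10, and Gadd45g -0.63 and 0.28. The myelin gene Mbp (-0.95 and 1.81) had most of its UMIs in single cells in several libraries. Rasl11a (-0.35 and 1.65) and Igfbp7 (-0.50 and 1.24) had most of their Lama4 KO UMIs in cells with 3 of the 5 markers.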

How the results depend on the processing

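The share differences kept their direction under the alternatives run. With at least 2 markers they were -0.339 percentage points for Lama5 KO and 0.292 between the WT pools, and under 10% mitochondrial UMIs -0.112, 0.132 and, for Lama4 KO, 0.347. Lama4 KO stood at 0.33 without members that carried markers of other cells, and Lama5 KO at -0.130 without those with astrocyte markers. The Lama5 KO comparison had 34 called genes, against 7 by DESeq2, 11 with at least 4 markers, 11 without members of both marker classes, and 42 to 69 without 1 library. The WT pools had 371, against 125 by DESeq2, 221 without members that carried markers of other cells, 136 without both classes, and 173 to 384 without 1 library. For Lama4 KO the rule of size took 13 genes, 8 with at least 4 markers and 55 to 74 without 1 WT library, which drops a criterion. Tpm2 turned to -0.37 with at least 4 markers, which removes the cells that held most of its UMIs. Other causes were not tested. Over the named genes, 79 values under alternatives lost the call for Lama5 KO and 181 kept it, and for the WT pools 7 lost it and 251 kept it.

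With the replicate number as a block, 25 genes were called for Lama5 KO (21 of them among the 34) and 418 between the WT pools. The numbers do not pair the samples: deviations of same-numbered libraries correlated at -0.024 and -0.017 over genes. With 24 to 62 members per library, genes at a few CPM rest on single UMIs.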
